A study of Mus musculus with 14 samples.

Results

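Spic and Crxos, 2 transcription factor genes of the mouse, were followed across 14 RNA-seq libraries of 2-cell embryos. They are 2 of the 56923 genes counted, and were chosen by gene symbol with their counts in these libraries, over all 7 conditions, already known. Their levels and fold changes are therefore given as a description, without a test, and tests are given for their relatives only. Spic encodes an ETS-family DNA-binding protein related to PU.1 and SpiB, known for its part in the macrophages of the spleen that recycle iron from red blood cells, where heme induces it. Crxos lies opposite the photoreceptor gene Crx, and in mouse it encodes a protein with homeodomains that is known from early embryos and embryonic stem cells. In mouse, the main wave of transcription from the embryo's own genome, major zygotic genome activation (ZGA), takes place in the 2-cell embryo, and the study asked how far it depends on lactate and on lactylation of lysine 18 of histone H3.

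The libraries came from ICR mouse embryos, 5 embryos a library and 2 libraries for each of 7 conditions. Early 2-cell embryos (30 h after hCG) and late 2-cell embryos (54 h) were cultured from 24 h in mKSOM medium with 5 μM Gne140, an inhibitor of lactate dehydrogenase, and 50 μM NMN, a precursor of NAD+. The medium held 10 mM lactate in the G&N groups and none in the G&N-L groups. A further late 2-cell group came from zygotes that were microinjected with 1 mM Lac-CoA, the lactyl donor, and then kept in G&N-L medium, whereas no injection is described for the other G&N-L groups or for G&N. The study describes its late 2-cell H3K18R and WT embryos as injected at 14 h with mRNA of H3 carrying that lysine-to-arginine change or of wild-type H3, on top of the embryo's own H3. Neither inhibitor nor lactate is named in their labels. The labels differ from this account in places. The early G&N-L treatment label does not mention missing lactate, the early G&N label names Gne140 only, Lac-CoA is written as CoA with no word on injection, the count columns of the mutant name another residue change, and the methods give a replicate number of 3 where the counts hold 2. Groups follow the sample titles.

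Library totals ran from 20350427 to 61275465 counts, so that 3 counts, the limit that a count of 0 allows, equalled 0.0490 to 0.147 counts scaled to the library size (CPM). Such limits cover counting error only. All 15 oocyte and embryo markers were detected in every library, with a summed level of 17432 to 51562 CPM, and the 12 markers of the 2-cell stage found in the table summed to 207 to 346 CPM in early and 1068 to 3062 CPM in late libraries. Markers of macrophages, photoreceptors and the cumulus cells around the egg were low. The 10 macrophage markers summed to 4.32 to 28.7 CPM, the 10 photoreceptor markers to 3.27 to 37.8 CPM and the 15 cumulus cell markers to 34.8 to 121 CPM. Of the macrophage list, Itgam and C1qc were at 0 in all 14 libraries. C1qb of that list averaged 9.59 CPM in early G&N and 15.2 CPM in early G&N-L, above Spic there, and Cd68 averaged 9.78 CPM with Lac-CoA. Nr5a2 was the highest of the cumulus list in every late library, with a mean of 45.8 CPM in late G&N. As a check of the injected mRNA, the histone gene H3c1 reached 43643 counts in H3K18R replicate 1 and 83390 in replicate 2. The libraries labelled WT held 4 and 3 counts, within the 0 to 66 of the 10 libraries of the other 5 groups. The H3c1 counts there do not show injected H3 mRNA, unlike those of H3K18R. The 11 other H3c genes had at most 77 counts in the libraries labelled WT, 94 in H3K18R and 361 in the other groups. H3f3b, an H3.3 gene, had 120117 to 164591 counts in WT, 87314 to 110028 in H3K18R and 132575 to 300971 in the other groups. Against such counts of the embryo's own, injected H3.3 mRNA could go unseen. Whether wild-type H3 mRNA was injected in the libraries labelled WT cannot be told from these counts, and WT below is the name of the label. H3c1 was the only gene past the adjusted threshold of edgeR between these groups, 0.00565% of those tested.

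On mm39, Spic lies on the minus strand at chr10:88510629-88520960 and Crxos on the plus strand at chr7:15616542-15637964. The annotation gives Spic 13 transcripts, of which 6 are coding. Crxos has 6 transcripts, which the GENCODE annotation types as long noncoding RNA and RefSeq as protein coding, so the counts do not show which kind of product was measured. Neither gene overlaps another annotated gene. Crx, the cone and rod homeobox gene, lies 2648 bases before Crxos on the other strand. The nearest coding gene after Crxos is Selenow, at 13168 bases, and those beside Spic are Mybpc1, at 69453 bases, and Arl1, at 45759 bases.

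The 250 bases before the annotated RefSeq starts are shown because both genes had their lowest levels in early and their highest in late embryos. RefSeq gives 1 start for Spic and 3 for Crxos. The sequences are from a RefSeq table on GRCm38.p6, and each was found once on its chromosome in mm39. Capitals mark the letters GAGGAA on either strand, the core that PU.1-related ETS proteins are known to bind. The window of the third Crxos start is not shown because 64 of its bases lie in an annotated exon.
Spic start, minus strand, chr10:88518886-88519135: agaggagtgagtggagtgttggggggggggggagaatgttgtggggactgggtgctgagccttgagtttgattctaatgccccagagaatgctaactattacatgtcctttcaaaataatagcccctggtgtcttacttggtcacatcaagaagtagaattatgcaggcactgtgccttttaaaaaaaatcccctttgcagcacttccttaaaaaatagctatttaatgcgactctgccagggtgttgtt
Crxos start 1, plus strand, chr7:15616292-15616541: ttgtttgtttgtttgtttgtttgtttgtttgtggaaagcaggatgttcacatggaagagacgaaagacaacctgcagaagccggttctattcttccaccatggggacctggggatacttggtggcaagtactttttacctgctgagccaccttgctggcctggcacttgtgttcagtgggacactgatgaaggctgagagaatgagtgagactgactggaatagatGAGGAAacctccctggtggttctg
Crxos start 2, plus strand, chr7:15629799-15630048: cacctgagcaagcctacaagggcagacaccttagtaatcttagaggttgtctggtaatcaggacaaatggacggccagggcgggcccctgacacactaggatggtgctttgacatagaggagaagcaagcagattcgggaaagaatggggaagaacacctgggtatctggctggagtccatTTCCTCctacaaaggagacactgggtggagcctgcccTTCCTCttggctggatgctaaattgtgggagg
The second Crxos start lies within the span of the longer transcripts from the first. GAGGAA begins at position -24 from the first Crxos start and, read on the opposite strand, at positions -69 and -32 from the second. It has no match in the Spic window, and 23.3% of 32851 promoter windows hold it. The homeodomain letters GGATTA and the TATA letters TATAAA, searched on both strands, had no match in any of the 4 windows. They were present in 6.25% and 12.4% of the promoter windows. These matches describe letters and not binding.

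**Figure D1:**
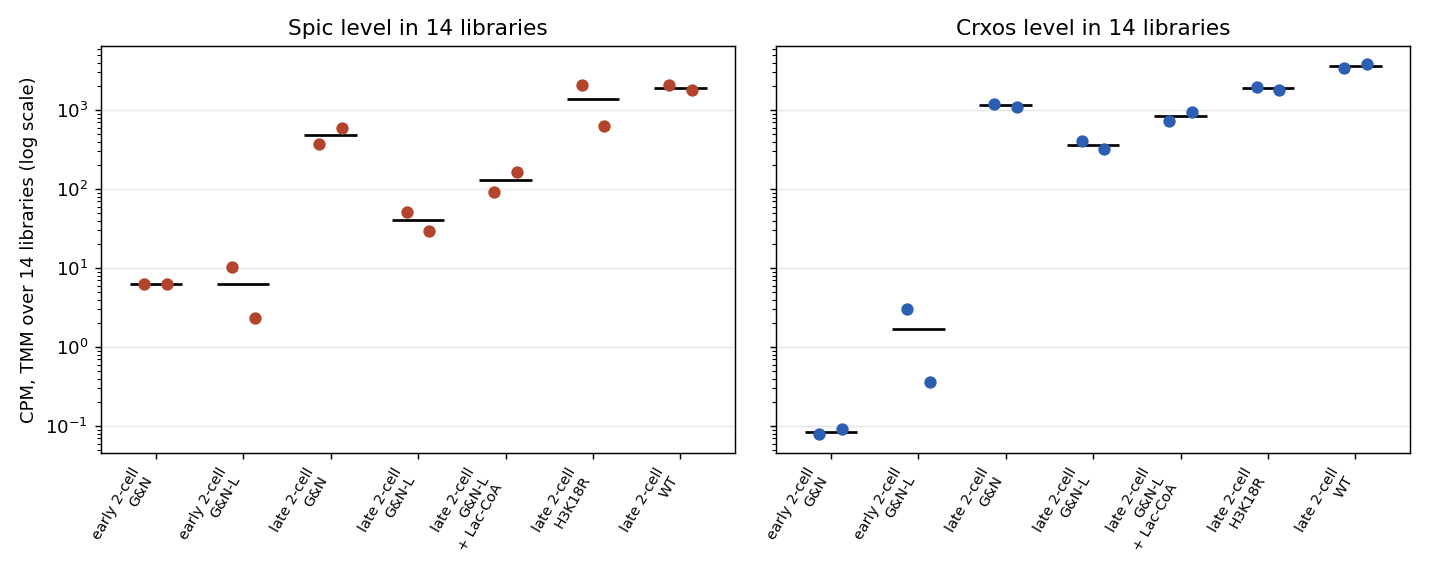
Level of Spic and Crxos in each library, in CPM scaled by TMM over the 14 libraries, on a log axis. Points are single libraries and bars are the means of 2 libraries. Both genes were highest in the libraries labelled WT, and in the late groups lowest in G&N-L.

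By mean CPM, both genes gave the 7 conditions the same order, from WT through H3K18R, late G&N, Lac-CoA and late G&N-L down to early G&N-L and early G&N. Spic stood at 1927 ± 201 CPM (SD, n = 2, as for all levels that follow) in WT, 1369 ± 1041 CPM in H3K18R, 483 ± 157 CPM in late G&N, 129 ± 53.1 CPM in the Lac-CoA group, 40.7 ± 15.6 CPM in late G&N-L, 6.38 ± 5.75 CPM in early G&N-L and 6.34 ± 0.0291 CPM in early G&N. The libraries of neighbours in this order overlapped between WT and H3K18R and between the early groups. The order of the early groups is not settled for Spic, whose log2 fold change between them became -1.26 without replicate 1 of early G&N-L. Crxos stood at 3608 ± 257 CPM in WT, 1892 ± 123 CPM in H3K18R, 1151 ± 63.7 CPM in late G&N, 847 ± 155 CPM in the Lac-CoA group, 365 ± 56.4 CPM in late G&N-L, 1.68 ± 1.86 CPM in early G&N-L and 0.0848 ± 0.00897 CPM in early G&N. No neighbours in the order of Crxos overlapped. How many of all genes give this order, or keep all neighbours apart, was not counted. In several steps of both orders the difference of the means was nonetheless close to the spread. That of Crxos between late G&N and Lac-CoA was 304 CPM against a combined SD of 168 CPM, and that of Spic between H3K18R and late G&N was 886 CPM against 1053 CPM. CPM are shares of a library, so a higher level per embryo and a smaller amount of other RNA cannot be told apart.

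Both genes were among the abundant genes of late 2-cell embryos when counted per length of annotated exon. In WT, Crxos ranked 27 and Spic 81 of 23272 genes with counts, at 1187 ± 84.6 and 466 ± 48.8 CPM per kb. In late G&N they ranked 102 and 349 of 25117, in late G&N-L 326 and 3080 of 25226, and in the Lac-CoA group 135 and 1262 of 24611. In early G&N they ranked 21285 and 8120 of 24060. Crxos thus stood below Spic per length in early embryos and above it in late embryos, at 0.0182 times the level of Spic in early G&N and 3.24 times in late G&N. The exon lengths of 3039 bases for Crxos and 4131 bases for Spic come from a newer annotation than that of the counts.

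**Figure D2:**
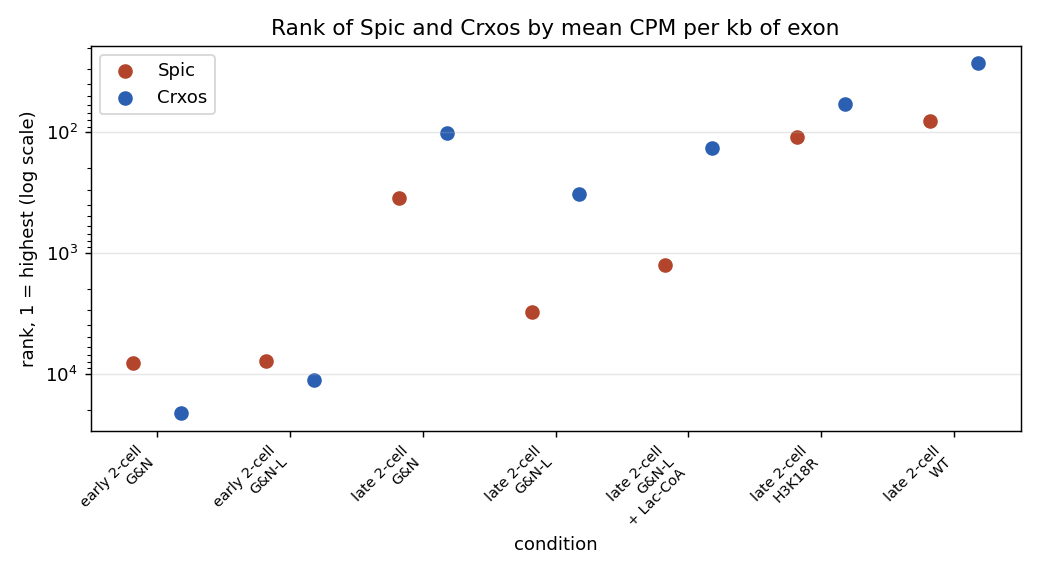
Rank of Spic and Crxos among all genes by mean CPM per kb of annotated exon in each condition, on a log axis with rank 1 at the top. Points are ranks of the mean of 2 libraries. Crxos ranked 21285 in early G&N and 27 in WT, Spic 8120 and 81.

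Between the early and late 2-cell stage with lactate, the count of Spic went from 322 and 279 in the early libraries to 13550 and 25727 in the late ones. Crxos had 4 counts in each early G&N library, with an exact 95% Poisson interval of 1.09 to 10.2, and 43576 and 47901 in the late ones. The groups did not overlap for either gene, as held for 34.8% of all genes in this direction. The fitted log2 fold change, from edgeR's quasi-likelihood fit, was 6.17 ± 0.384 (SE) for Spic and 13.62 ± 0.41 for Crxos. The SE, here and below, was derived from the test as the size of the fold change over the square root of its F statistic. For Crxos this SE may be too small, since DESeq2 gave 0.579 and 1 edgeR fit over 14 libraries 0.890. Of the 19443 genes tested, 91.5% had a lower value than Spic and 99.9% a lower value than Crxos.

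Without lactate, the late libraries held 1985 and 1132 counts of Spic, against 418 and 51 in the early ones. Crxos had 15533 and 12390 counts late and 120 and 8 early, so both genes were higher late than early in this medium too. In this direction 35.3% of the genes tested did not overlap. The log2 fold change was 2.62 ± 0.766 for Spic and 7.63 ± 0.934 for Crxos. Replicate 1 of early G&N-L decided much of it, since without this library the values were 4.03 and 9.85. The comparisons with and without lactate share no library. The median of all genes was 0.08 with and 0.15 without lactate, and 0.46 and 0.51 when scaled by library totals.

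In late 2-cell embryos, lack of lactate went with a lower level of both genes. Spic had 371.8 and 593.8 CPM in the G&N libraries and 51.7 and 29.7 CPM in the G&N-L libraries. Crxos had 1196 and 1106 CPM with lactate and 405 and 325 CPM without. Neither gene overlapped between the groups, as held for 23.5% of all genes in this direction. The mean level without lactate was 8.43% of that with lactate for Spic and 31.7% for Crxos. The fitted log2 fold change was -3.51 ± 0.391 for Spic, with 2.5% of 19481 genes lower, and -1.61 ± 0.205 for Crxos, with 8.82% lower. When any 1 of the 4 libraries was left out, the value of Spic lay between -3.98 and -3.1 and that of Crxos between -1.8 and -1.44. The difference between the 2 genes was not tested.

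**Figure D3:**
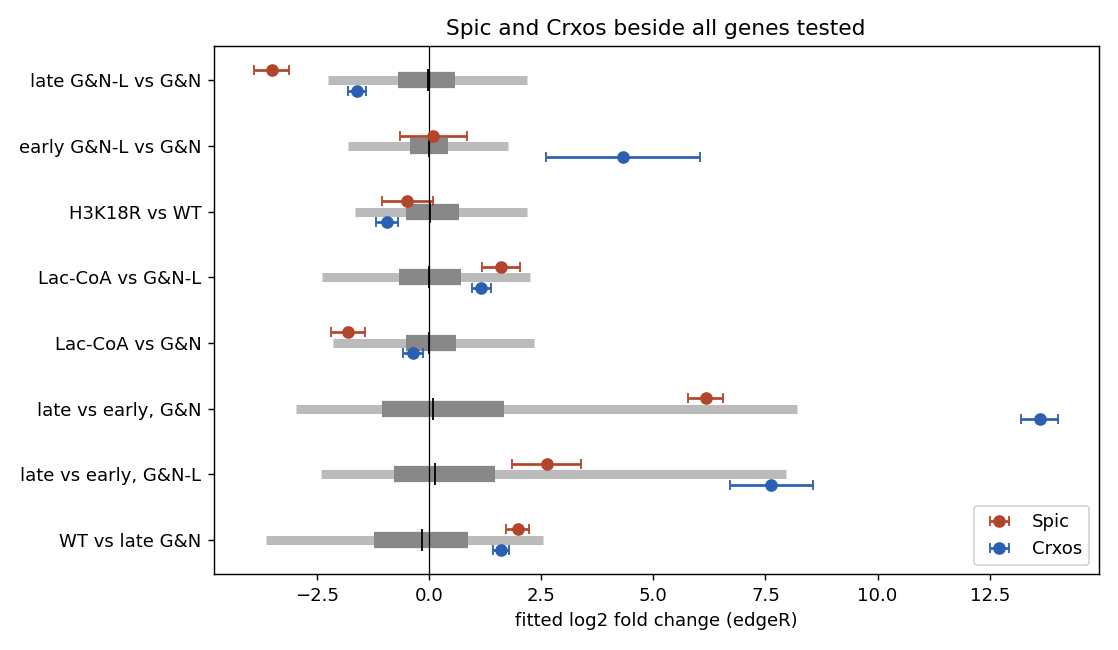
Fitted log2 fold change of Spic and Crxos in the 8 comparisons, with SE bars. Behind them the pale bar spans the 5th to 95th percentile of all genes tested, the dark bar the 25th to 75th, and the tick is the median. In late embryos without lactate Spic was at -3.51 and Crxos at -1.61, and early embryos gave 0.09 and 4.33.

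Early 2-cell embryos did not give the same picture. Spic had 10.4 and 2.31 CPM without lactate and 6.32 and 6.36 CPM with it, so that the groups overlapped, and its log2 fold change was 0.09 ± 0.746. It became -1.26 without replicate 1 of G&N-L and -0.0035 without replicate 1 of G&N. Crxos had 120 and 8 counts without lactate and 4 and 4 with it, and was higher in both G&N-L libraries, as held for 16% of all genes. Its log2 fold change of 4.33 ± 1.71 rested on few reads and became 2.24 without replicate 1 of G&N-L. The Poisson interval of the 8 counts ran from 3.45 to 15.8 and met that of the 4 counts, which was 1.09 to 10.2, although the libraries differed in depth. A test of the difference between the stages, by the interaction of stage and lactate in edgeR, called 0 of 22287 genes, with 1683 at an unadjusted p under 0.05, and DESeq2 called 231. For Spic and Crxos that difference was not tested.

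In embryos injected with Lac-CoA and cultured without lactate, both genes stood between late G&N-L and late G&N. Spic had 91.2 and 166.4 CPM in the Lac-CoA libraries, above both G&N-L libraries and below both G&N libraries. Crxos had 737 and 957 CPM, again between them. The share of all genes that did not overlap was 23.4% for higher than G&N-L and 19.2% for lower than G&N. Against G&N-L the log2 fold change was 1.60 ± 0.423 for Spic and 1.16 ± 0.214 for Crxos. Against G&N it was -1.81 ± 0.378 for Spic and -0.35 ± 0.218 for Crxos. The mean level with Lac-CoA was thus 26.7% of late G&N for Spic and 73.6% for Crxos. For Crxos, the distance to G&N ranged from -0.55 to -0.18 when 1 library was left out. The G&N-L and G&N libraries are the same in these comparisons and in that of lactate, so these values are not independent. Lac-CoA embryos were injected and those of both other groups are not described as injected, so Lac-CoA and the injection cannot be told apart here.

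Between H3K18R and the libraries labelled WT, Crxos was lower in both mutant libraries and Spic in 1 of 2. Crxos had 1979 and 1805 CPM in H3K18R and 3426 and 3790 CPM in WT. Its groups did not overlap, as held for 19.3% of genes in this direction, and its log2 fold change was -0.93 ± 0.244. Spic had 2105 and 633 CPM in H3K18R and 2070 and 1785 CPM in WT. Its mutant libraries differed by 3.33-fold, on both sides of WT, and the log2 fold change of -0.49 ± 0.568 became -1.61 without replicate 1 of H3K18R and 0.13 without replicate 2. All 4 libraries were above the late G&N libraries in both genes, for Spic by as little as 633 CPM in H3K18R against 594 CPM in G&N. H3K18R was not compared with G&N over all genes, so its share of genes without overlap is not known. WT exceeded late G&N by a log2 fold change of 1.97 ± 0.262 for Spic and 1.61 ± 0.18 for Crxos. In this comparison 27.3% of genes were higher without overlap, and the median of all genes was -0.16. By the study's description WT embryos were injected, and Gne140 and NMN are described for G&N only. The medium of the WT embryos is not stated. Whether the libraries labelled WT hold injected H3 mRNA cannot be told from the counts, and the parts of these differences cannot be told apart.

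The balance of the 2 genes within a library, which does not depend on scaling, also differed between conditions. Crxos had 3.22 and 1.86 reads for each read of Spic in late G&N, 7.83 and 10.9 in late G&N-L and 8.08 and 5.75 with Lac-CoA. The ratio was 1.66 and 2.12 in WT and 0.94 and 2.85 in H3K18R. Late embryos without lactate, with or without Lac-CoA, thus all had more Crxos reads per Spic read than those of the other late groups. How many other pairs of genes separate these libraries alike was not counted. In early embryos the ratio was 0.0124 and 0.0143 with lactate and 0.287 and 0.157 without.

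**Figure D4:**
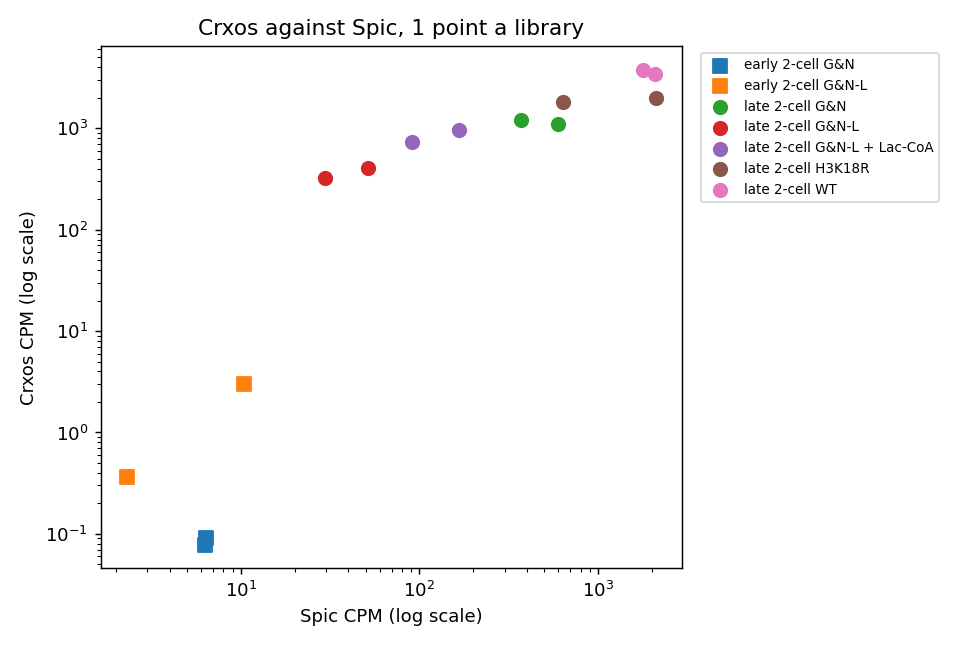
CPM of Crxos against CPM of Spic on log axes, 1 point a library, coloured by condition, with squares for early and circles for late 2-cell libraries. In late libraries Crxos spanned 325 to 3790 CPM and Spic 29.7 to 2105 CPM. The early libraries lay apart from them, with Crxos at 0.0785 to 2.999 CPM.

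Over the 14 libraries, the log2 CPM of Spic and Crxos had a Pearson's r of 0.898 and a Spearman's rho of 0.965, and over the 10 late libraries an r of 0.957. This is a description, since libraries of a condition share that condition. Many genes had such a pattern. Of 25315 other genes, 1050 (4.15%) had an r above 0.9 with Spic and 1474 (5.82%) with Crxos, and Crxos was only number 1077 in the order for Spic. The genes most like Spic were Dppa4, a chromatin factor of pluripotent cells, with an r of 0.988, Xiap, an inhibitor of apoptosis (0.985), the noncoding RNA Dancr (0.984), Hnrnpab, an RNA-binding protein (0.984), and the ribosomal protein gene Rpl7 (0.983). Dppa4 stood at 13.9 CPM in early G&N, 277.6 CPM in late G&N, 75.4 CPM in late G&N-L, 164 CPM with Lac-CoA, 543 CPM in H3K18R and 674 CPM in WT. The genes most like Crxos were Gm11517, Prmt6, an arginine methyltransferase, and the nucleolar protein gene Nop16, each with an r of 0.995, then Ppp2cb, a catalytic subunit of protein phosphatase 2A (0.994), and the glutamine synthetase gene Glul (0.991). Gm11517, Prmt6, Nop16 and Ppp2cb had 0 CPM in early G&N. Over the 10 late libraries alone, r with Crxos was 0.976 for Gm11517, 0.948 for Prmt6, 0.958 for Nop16, 0.890 for Ppp2cb and 0.857 for Glul. Nop16 stood at 220.5 CPM in late G&N, 48.9 CPM in late G&N-L and 740.3 CPM in WT.

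Of the genes beside Spic and Crxos, Crx had at most 4.77 CPM in any library, with 3.49 CPM in late G&N-L and 0.747 CPM in late G&N, the other order from Crxos. Selenow, a selenoprotein gene, stood at 772 CPM in late G&N, 662 CPM in late G&N-L and 142 CPM in WT. Mybpc1 had at most 8.05 CPM in any library. Arl1, a small GTPase gene of the Golgi, was the one whose levels ran in nearly the order of Spic, over a narrower range, with 36.9 CPM in early G&N, 70.7 CPM in late G&N, 45.03 CPM in late G&N-L, 64.4 CPM with Lac-CoA, 106 CPM in H3K18R and 95.6 CPM in WT.

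Of the 25 other ETS genes, only Gabpa, the DNA-binding subunit of GABP, was called higher in late than in early embryos by edgeR with and without lactate. It had 1.08 and 2.69 CPM in early G&N, 278 and 484 CPM in late G&N, 107 and 107 CPM in late G&N-L, 289 and 323 CPM with Lac-CoA, 842 and 379 CPM in H3K18R and 864 and 839 CPM in WT. Gabpa rose to the late stage with lactate by a log2 fold change of 7.54 ± 0.720 (adjusted p = 0.00731, edgeR with Benjamini-Hochberg adjustment), and without lactate by 4.93 ± 0.628 (adjusted p = 0.0145). Between late G&N-L and G&N its log2 fold change was -1.77 ± 0.288, with an adjusted p of 0.311 in edgeR and 3.3e-06 in DESeq2. PU.1 (Spi1) and SpiB (Spib), the closest relatives of Spic, had at most 1.35 and 1.26 CPM in any library.

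The ETS list as a whole moved both ways with stage. With lactate, 18 of the 25 were tested, of which 3 fell and 1 rose, with a median log2 fold change of 0.13 against 0.08 for all genes. Over all genes, 5.47% fell and 8.18% rose. Ehf, known from epithelia, fell by 1.80 on the log2 scale (adjusted p = 0.0184), Elf2 by 1.85 (adjusted p = 0.038) and Etv1 by 1.51 (adjusted p = 0.0412), all by edgeR. Without lactate 16 were tested, with 1 fall (Ehf) and 1 rise (Gabpa), where 5.87% of all genes fell and 5.97% rose. In the other 6 comparisons edgeR called no ETS gene. There it called 0.00565% of all genes for H3K18R, 4.62% between WT and G&N and 0% in the 4 comparisons of lactate and Lac-CoA. In the comparison of late G&N-L with G&N, 19 were tested and 3 were lower at an unadjusted p under 0.05 and a log2 change beyond 0.5, as were 7.63% of all genes, and DESeq2 called 2 lower, against 3.35% of all genes.

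The homeobox relatives of Crxos split into those higher early and those higher late. With lactate, 13 of the 14 were tested between the stages, and 4 fell and 4 rose, where 5.47% of all genes fell and 8.18% rose. Obox3, Obox6 and Obox8, members of the oocyte-specific homeobox family, and Duxbl1, a double-homeobox gene, rose. Obox3 had 44 and 160 counts in early and 10557 and 21699 in late G&N, Obox6 60 and 0 against 25967 and 46799, and Obox8 0 and 1 against 2471 and 4993. Their adjusted p values were 0.0128, 0.0161 and 0.00599 by edgeR, and that of Duxbl1 was 0.0269. Obox1, Obox2 and Obox7 of the same family and Nobox, a transcription factor of oocytes, fell by 2.58, 4.15, 1.42 and 2.27 on the log2 scale (adjusted p = 0.0109, 0.0116, 0.0371 and 0.0246, edgeR). Without lactate 12 were tested, the same 4 fell, and Obox3, Obox6 and Duxbl1 rose, where 5.87% of all genes fell and 5.97% rose. The sign of each gene called in the lists of ETS, homeobox and iron genes was the same under TMM, DESeq2's size factors and library totals. Obox genes are near copies of each other in part, so reads may have been shared among them. Duxf3, the Dux gene, had at most 1.38 CPM in any library.

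Without lactate in late embryos, edgeR called none of the 12 homeobox genes tested and 0 of all 19481 genes, of which 2332 had an unadjusted p under 0.05. DESeq2 called 3 of the 12 lower and 1 higher, where it called 3.35% and 1.65% of all genes and 916 in all. Obox8 had 67.8 and 115 CPM in late G&N, 3.13 and 8.05 CPM in G&N-L and 36.7 and 61.8 CPM with Lac-CoA, with a log2 fold change of -3.98 ± 0.567 between G&N-L and G&N (adjusted p = 0.311 in edgeR and 1.19e-11 in DESeq2). Obox3 had 290 and 501 CPM in G&N, 126 and 154 CPM in G&N-L and 363 and 386 CPM with Lac-CoA. The same pattern of levels was seen for Obox6, at 713 and 1080.2 CPM in G&N, 407 and 319 CPM in G&N-L and 772 and 640 CPM with Lac-CoA. Obox5, which had its highest levels in early embryos, differed from them, at 6415 and 8410 CPM in G&N and 8320 and 9037 CPM in G&N-L. These Obox5 groups overlapped, and its mean with Lac-CoA was 6084 CPM. Obox7 averaged 527 CPM in G&N, 291 CPM in G&N-L and 200 CPM with Lac-CoA, and Nobox 40.5, 86.0 and 49.0 CPM. Between Lac-CoA and G&N-L, 8 of the 12 homeobox genes tested were lower with Lac-CoA and 4 higher. Their median log2 fold change was -0.43, against -0.01 for all genes.

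Between the libraries labelled WT and late G&N, edgeR called 5 of 12 homeobox genes lower and 1 higher, against 2.68% and 1.94% of all genes. Obox1, Obox7, Obox5, Obox2 and Nobox were lower and Obox8 higher, with adjusted p of 0.0413 for each but Nobox, at 0.0448. No gene was called in this comparison when any 1 of its 4 libraries was left out, and none between the stages with lactate without either late G&N library. In H3K18R against WT, edgeR called none of 13 homeobox genes tested, and 1 was higher in DESeq2, Obox2 (adjusted p = 0.00754), where DESeq2 called 0.522% of all genes higher.

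**Figure D5:**
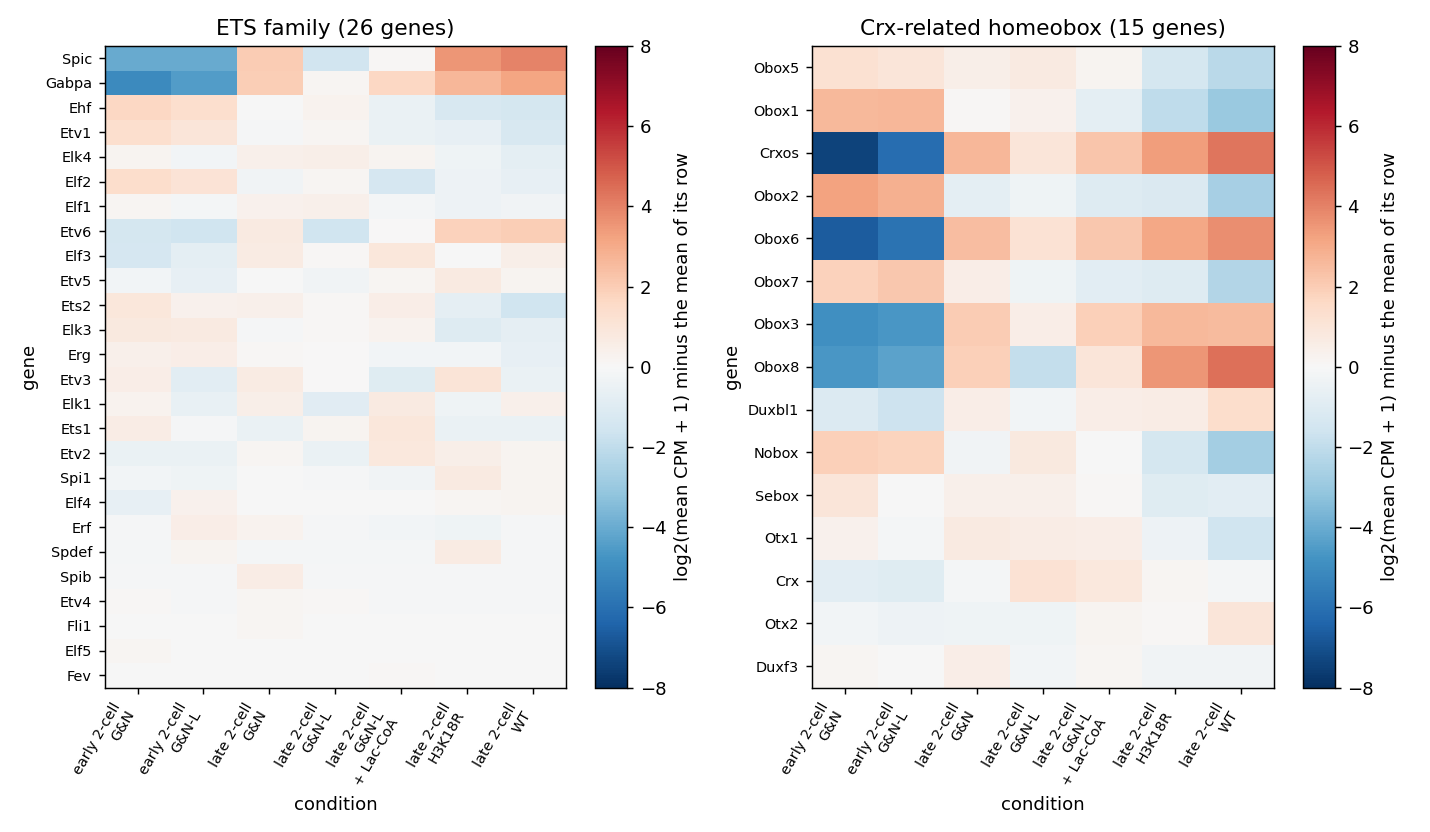
Level of the 26 ETS genes and 15 Crx-related homeobox genes on the list by condition, as log2(mean CPM + 1) of 2 libraries minus the mean of the row, so that colours compare conditions within a gene and not genes. Genes are ordered by their highest level. Gabpa beside Spic, and Obox3, Obox6 and Obox8 beside Crxos, were lowest early, while Obox1, Obox2 and Obox7 were highest early.

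Heme and iron genes were counted because Spic is known from iron recycling. With lactate, 13 of 16 were tested between the stages, of which 2 rose and none fell, where 8.18% of all genes rose and 5.47% fell. Tfrc, the transferrin receptor gene, had 385 and 190 counts early and 7646 and 13150 late, a log2 fold change of 5.38 ± 0.399 (adjusted p = 0.00599, edgeR). Fth1, the ferritin heavy chain gene, rose by 1.03 ± 0.228 (adjusted p = 0.0427, edgeR). Without lactate 5 of 14 rose and none fell, where 5.97% of all genes rose and 5.87% fell. They were Tfrc, Fth1, the ferritin light chain gene Ftl1 and the heme oxygenase genes Hmox1 and Hmox2. In late G&N-L against G&N edgeR and DESeq2 called none of 14, and 1 was higher at an unadjusted p under 0.05 and a log2 change beyond 0.5, as were 4.23% of all genes. This was Hmox1, which breaks down heme, with 3.35 and 3.95 CPM in G&N and 10.7 and 11.2 CPM in G&N-L, while Spic was lower there. Tfrc had 210 and 304 CPM in G&N and 199 and 149 CPM in G&N-L, with an adjusted p of 0.581 in edgeR. Between the libraries labelled WT and late G&N, edgeR called 1 of 14 iron genes lower, as it did 2.68% of all genes. This was Fth1, at 475 and 405 CPM against 966 and 1007 CPM (adjusted p = 0.0427).

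Markers of other cells also moved with stage in part. With lactate, edgeR called 1 of 6 photoreceptor and 1 of 9 cumulus markers tested higher late, where 8.18% of all genes rose. By sign alone, 3 of the 6 and 3 of the 9 were lower late. The photoreceptor marker called was Pde6a, with 0 and 0 counts in early G&N and 225 and 456 in late G&N (adjusted p = 0.0185, edgeR). That of the cumulus list was Tnfaip6, with 0 and 0 against 104 and 223 (adjusted p = 0.0347, edgeR). No macrophage marker was called between the stages by edgeR, while DESeq2 called 2 of 4 higher with lactate, as it did 19.4% of all genes. The part of such cells in the levels of Spic and Crxos was not tested.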

How the data were processed

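The deposited file holds counts of reads per gene, whole numbers without normalization, which the authors made by checking reads with FastQC, trimming them with Trim Galore, aligning them to mm39 with HISAT2 and counting with featureCounts. Versions, the annotation release and the strand setting are not given in the sources used here. The authors used DESeq2 on their comparisons.

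The analysis here used edgeR 4.0.16 under R 4.3.3. Each of 8 comparisons was fitted on its own 4 libraries with edgeR's default expression filter (minimum count 10), TMM scaling and the two-sided quasi-likelihood test, with Benjamini-Hochberg adjustment over all genes tested and a threshold of 0.05. The interaction used 8 libraries. Levels are CPM scaled by TMM over the 14 libraries, fold changes use edgeR's prior count of 0.125, and log2 CPM for correlations a prior count of 2. The functions were tested on simulated data. Replicates differed by more than counting noise (chi-square per degree of freedom 47.8 to 195). The labels do not say whether replicates are separate cultures, so p-values measure only the spread between these libraries, which may be technical. With 2 libraries a group, precision is limited.

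Spic, Crxos and the gene lists were chosen with earlier results of these data known. Genes named are Spic and Crxos, their nearest coding neighbours, the 5 genes most correlated with each, and in each list those past the threshold (at most 4 per comparison by smallest p, otherwise the most expressed), with the Obox genes and Duxf3. Genes named outside this rule (Spi1, Spib, Itgam, C1qc, Hmox1 in late embryos) were picked after their values were seen. Gene positions are from GENCODE vM39 on GRCm39 (mm39). Alternatives were DESeq2 1.42.0, its size factors in edgeR, library totals, no filter, at least 10 counts in every library, 1 fit over 14 libraries, the replicate number as a block, and each library left out in turn. FPKM values, other assays of the study and human embryos were not analysed here.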

Additional observations from a re-analysis of the deposited data

Results flagged for a closer look

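The Crxos libraries without lactate lay on opposite sides of those with lactate at the 2 stages, though few early reads carried this. Both early 2-cell G&N-L libraries, with 120 and 8 counts, were above both G&N libraries, with 4 and 4 counts (log2 fold change 4.33), while both late 2-cell G&N-L libraries, at 405 and 325 CPM, were below both G&N libraries, at 1196 and 1106 CPM (log2 fold change -1.61). Of all genes tested, 16% were higher without overlap in early G&N-L and 23.5% lower without overlap in late G&N-L. The share with both was not counted. Without replicate 1 of early G&N-L the early value of Crxos was 2.24. The difference between the stages was not tested for Crxos, which was chosen with these values known. Spic did not show this, since its early libraries overlapped. Groups of 2 libraries are too small for a check of single outlying libraries.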

How the results depend on the processing

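The direction of Crxos was the same in the 8 comparisons under each alternative that gave a value. With at least 10 counts in every library, Crxos had no value for early G&N-L against G&N or for the stages with or without lactate. The direction of Spic was the same except between early G&N-L and G&N, where the replicate block gave -0.22 and leaving out 1 library -1.26 to 0.77, and between H3K18R and WT, where leaving out 1 library gave -1.61 to 0.13. For late against early G&N, library totals gave 6.55 for Spic and 13.998 for Crxos and DESeq2 gave 13.78 for Crxos. Leaving out 1 library gave 5.81 to 6.46 for Spic and 13.53 to 13.85 for Crxos there, 1.94 to 4.03 and 6.90 to 9.85 for late against early G&N-L, 1.71 to 2.41 for Spic between WT and G&N, and 2.24 to 5.15 for Crxos between early G&N-L and G&N. The correlation of Spic with Crxos was 0.965 as Spearman's rho and 0.957 over late libraries.

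Counts of genes called differed between tools, filters and sets of libraries. DESeq2 called 916 genes between late G&N-L and G&N, 37 between early G&N-L and G&N, 118 between H3K18R and WT, 1183 between Lac-CoA and G&N-L, 471 between Lac-CoA and G&N, 5959 and 5218 between the stages with and without lactate, 4104 between WT and G&N and 231 in the interaction, where edgeR called 0, 0, 1, 0, 0, 2654, 2203, 877 and 0. In edgeR without a filter, the counts for late G&N-L, early G&N-L, H3K18R, Lac-CoA against G&N-L, Lac-CoA against G&N, stage with lactate and WT against G&N were 317, 42, 78, 3, 22, 5060 and 3668. With at least 10 counts in every library, they were 114 for late G&N-L, 2 and 20 for Lac-CoA against G&N-L and G&N, and 2971 for WT against G&N. One fit over 14 libraries called 11 for late G&N-L, 4 for early G&N-L and 9 for H3K18R. Leaving out 1 library gave 0 to 1 for H3K18R, 0 to 2180 and 0 to 1224 for the stages with and without lactate, and 0 for WT against G&N. The cause of these differences was not tested.

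Of all genes it tested, DESeq2 called 4.99% between late G&N-L and G&N, 6.28% between Lac-CoA and G&N-L, 2.55% between Lac-CoA and G&N, 0.708% between H3K18R and WT, 31.9% and 29.8% between the stages with and without lactate, and 22% between WT and G&N. Beside these shares, it called 2 of 19 ETS genes between late G&N-L and G&N, 3 of 17 between Lac-CoA and G&N-L, 1 of 17 between Lac-CoA and G&N, 4 of 16 between the stages without lactate and 4 of 18 between WT and G&N. Of homeobox genes it called 4 of 12, 6 of 12, 2 of 13 and 10 of 12 for late G&N-L, Lac-CoA against G&N-L, Lac-CoA against G&N and WT against G&N, and 1 of 13 for H3K18R. Of iron genes it called 6 of 13 between the stages with lactate and 4 of 14 between WT and G&N. The DESeq2 shares, here and above, leave out genes without an adjusted p. For late G&N-L against G&N this left 18347 of the 19481 genes that passed edgeR's filter. The numbers of list genes are those that passed this filter, so the denominators differ.

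Replicate numbers only name the libraries, since the differences of same-numbered libraries correlated at -0.048 to 0.011. With the replicate block, 1391 genes were called between the stages without lactate. The counts of the early libraries limit the fold changes of Crxos.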

Other observations

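In early 2-cell G&N-L embryos, replicate 1 had a higher level than replicate 2 of several genes that were higher late than early. Spic had 10.4 and 2.31 CPM and Crxos 2.999 and 0.363 CPM in replicates 1 and 2, a 4.52-fold and an 8.26-fold difference. Zfp352, a marker of the 2-cell stage, had 21.6 and 2.86 CPM, Gabpa 5.20 and 1.45 CPM and Obox3 4.30 and 1.41 CPM. Tfrc and Obox8 went the other way, at 1.47 and 3.04 CPM and at 0 and 0.635 CPM. These genes were picked after their values were seen. The early G&N libraries differed by 1.01-fold in Spic and 1.16-fold in Crxos. Replicate 1 had 47998020 counts and replicate 2 had 23473359.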
